A study of Mus musculus with 8 samples.

Results

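Counts on 9 nuclear genes that carry copies of mitochondrial sequence were followed across 8 Nanopore libraries of mouse liver mitochondria. The genes are Gm20594, annotated as protein-coding on chromosome 6, and 8 unprocessed pseudogenes, of which Gm29216, Gm28661, Gm10925, Gm28437, Gm28438, Gm10222 and Gm28439 lie next to each other on chromosome 1 and Gm13339 lies on chromosome 2. Each of the 9 genes had 1 transcript among the 8688 transcripts counted, and they were found by matching its Ensembl identifier. The genes were chosen by their counts in these same libraries, which were already known, so their levels are given as a description. Together they held 89335 of the 825194 counts, or 10.8%, and Gm20594 alone held 66.4% of these.

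All mice were wild-type C57BL/6N, aged 12 weeks (12 W, 4 libraries) or 65 weeks (65 W, 4 libraries), and the labels call the libraries of an age biological replicates. Mitochondria were isolated from the liver by differential centrifugation, treated with nuclease and purified on a sucrose gradient, and their RNA was turned into cDNA from an oligo-dT primer, barcoded by PCR and sequenced on a MinION. The 12 W cohort is described as female, and the sources used here do not state the sex of the 65 W mice, so age and sex cannot be told apart. A 12 W library held 104554 to 191092 counts and a 65 W library 12630 to 105252, and 65W-1 (12630 counts) and 65W-3 (22651 counts) give the least precise values. Of the 8 hepatocyte markers checked, such as albumin, 8 had counts, which came to between 10.6 and 24.9 per 1000 counts of a library. Lists of Kupffer, endothelial, stellate, erythroid and lymphoid markers each reached at most 0.397 per 1000. In RNA pooled from many organelles, fewer mitochondria of a kind and less RNA per mitochondrion cannot be told apart.

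Over evolution, pieces of mitochondrial DNA have been inserted into nuclear chromosomes, where they usually persist as pseudogenes without a known function. Because such a copy can be nearly identical to the mitochondrial gene it came from, a read of the mitochondrial mRNA can be assigned to either row when reads are aligned to a list of transcripts. Mitochondrial mRNAs are cut out of long precursors at the flanking tRNAs and receive short poly(A) tails, and several of their stop codons are completed only by that tail.

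The sequences differed in how closely they matched. Of the 7 copies on chromosome 1, 5 were identical to their mitochondrial counterpart over their whole annotated length in the GENCODE transcripts of the mouse genome GRCm38. Mitochondrial genes are named here without the prefix mt- of the files, and Cox1 to Cox3 stand for mt-Co1 to mt-Co3. The identical copies were Gm28661 (681 nt of Cox2), Gm10925 (678 nt of Atp6), Gm28437 (783 nt of Cox3), Gm10222 (294 nt of Nd4l) and Gm28439 (876 nt of Nd4). Gm28438 matched 345 nt of Nd3 with 1 substitution, and Gm29216 matched the last 483 nt of Cox1 with 1 substitution. Gm13339 matched the last 510 nt of Nd2 with 17 substitutions (96.7% identity). Gm20594 matched an inner stretch of the large ribosomal RNA Rnr2 over 435 aligned positions, with 41 substitutions, 9 gap positions and 88.5% identity. All 9 matches were in the sense orientation of the mitochondrial transcript.

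The 7 chromosome 1 copies formed one block from 24611535 to 24616197 on the minus strand, 4663 nt long, which corresponds to 6390 to 11042 of the mitochondrial chromosome. From the match start of one copy to that of the next, the distances on chromosome 1 and on the mitochondrial chromosome were equal for 5 of the 6 neighbouring pairs. The exception was the step from Gm28438 (Nd3) to Gm10222 (Nd4l), which measured 419 nt on chromosome 1 and 418 nt on the mitochondrial chromosome. The order of the block is that of the mitochondrial genes, with Cox1 first and Nd4 last.

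**Figure D1:**
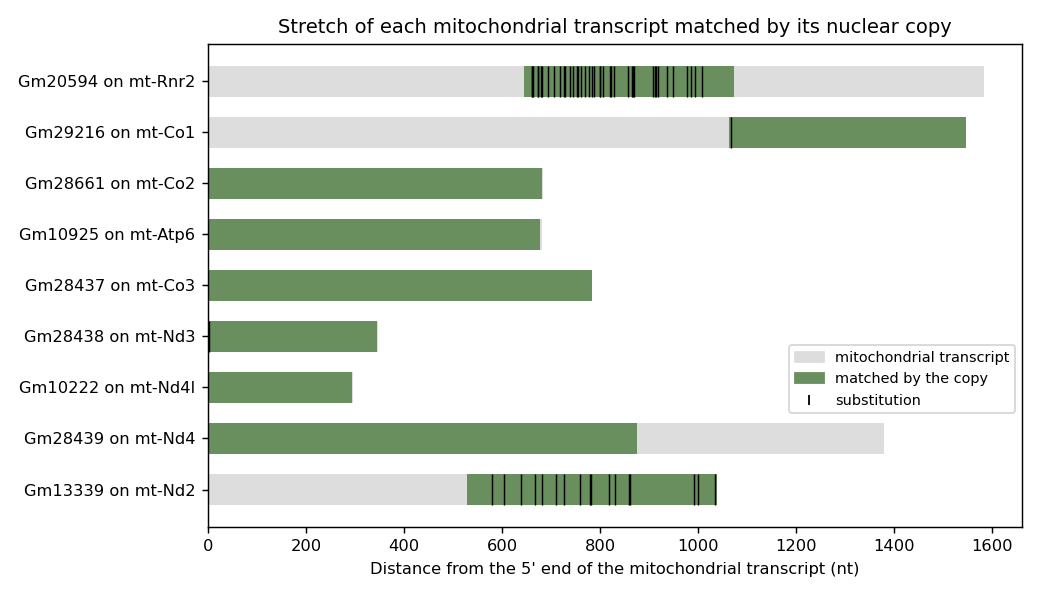
Each bar is a mitochondrial transcript drawn to scale from its 5′ end (x axis, nt), with the stretch matched by the nuclear copy in green and substitutions as black lines. The copies of Cox2, Atp6, Cox3, Nd3 and Nd4l span almost the whole gene, those of Cox1 and Nd2 its 3′ part, that of Nd4 its 5′ part of 876 nt, and Gm20594 an inner stretch of Rnr2 with 41 substitutions.

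The bases that separate a copy from its counterpart are shown for the 2 near-identical copies, because within the match a read can be told apart only if it covers them. Substitutions are written with the mitochondrial base first, the position counted from 1 at the 5′ end of the mitochondrial transcript, then the base of the copy. Gm28438 differed from Nd3 by T3C. The first 30 nt of Nd3 (chrM:9459-9488, plus strand) and of Gm28438 (chr1:24613090-24613119, minus strand) read as follows, with the differing base in capitals.
Nd3: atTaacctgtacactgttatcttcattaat
Gm28438: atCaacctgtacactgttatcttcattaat
Gm29216 differed from Cox1 by A1066T, at position 13 of the copy and 479 nt from the 3′ end of Cox1. The first 9 nt of Gm29216 lie outside the match and are not shown. The first 30 nt of the match (chrM:6390-6419, plus strand, and chr1:24616159-24616188, minus strand) are given with that base in capitals.
Cox1: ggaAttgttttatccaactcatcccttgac
Gm29216: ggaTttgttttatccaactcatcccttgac
In both pairs the substitution lies at the 5′ end of the match, so the remaining 342 nt of Gm28438 and 479 nt of Gm29216 are identical to the mitochondrial gene. GRCm38 was built from C57BL/6J mice, and the bases that the C57BL/6N mice carry at these positions were not analysed here.

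At the 3′ end the annotated transcripts of the identical copies other than Gm28439 stop just short of the end of the gene, as the last matched bases of 3 pairs show, with the bases of the mitochondrial gene beyond the copy in capitals.
Cox3 (chrM:9360-9390): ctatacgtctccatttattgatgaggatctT
Gm28437 (chr1:24613189-24613218): ctatacgtctccatttattgatgaggatct
Atp6 (chrM:8575-8607): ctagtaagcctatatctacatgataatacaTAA
Gm10925 (chr1:24613974-24614003): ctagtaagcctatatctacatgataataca
Cox2 (chrM:7664-7696): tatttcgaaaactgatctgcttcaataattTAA
Gm28661 (chr1:24614885-24614914): tatttcgaaaactgatctgcttcaataatt
As annotated, the Cox2 and Atp6 copies end before the stop codon of the gene and the Cox3 copy before its last base. These are ends of annotated transcripts, and the chromosome 1 sequence between them was not analysed here. The annotated Gm28439 differs from these, since it covers only the first 63.6% of Nd4 and lacks the last 502 nt.

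The copies outside chromosome 1 carried more differences, and capitals mark the differing bases of the first pair below and the identical bases of the second. In Gm13339, 15 of the 17 substitutions were transitions and 12 fell on the third base of a codon of Nd2. The 30 nt window with the most substitutions (chrM:4665-4694 and chr2:22590281-22590310, minus strand) reads as follows.
Nd2: taggaggCcttccaccactaacaggattCT
Gm13339: taggaggTcttccaccactaacaggattTC
In Gm20594, on the plus strand of chromosome 6 from 79817916 to 79818364, 23 of the 41 substitutions from Rnr2 were transitions. Its longest stretch identical to Rnr2 had 65 nt. The first 30 nt of that stretch lie in the annotated coding part of Gm20594 (chr6:79818251-79818361) and are identical in both.
Rnr2 (chrM:2102-2131): TTTAATCAGTGAAATTGACCTTTCAGTGAA
Gm20594 (chr6:79818283-79818312): TTTAATCAGTGAAATTGACCTTTCAGTGAA
Of Rnr1 and Rnr2 no counts were analysed here, since 0 of the 8591 transcripts with a GENCODE match were mitochondrial rRNAs or tRNAs. Gm20594 could therefore not be paired with Rnr2. The paper reports reads of Rnr1 and Rnr2, which it ascribes to inner A-rich stretches, and it normalized to Rnr2. Whether reads of Rnr2 were counted on Gm20594 was not tested.

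Levels were expressed as counts per 1000 counts on the 13 protein-coding mitochondrial genes of the same library, called mitochondria-encoded mRNA counts here. Atp8 and Atp6 share an mRNA, as do Nd4l and Nd4, so the 13 rows are not 13 separate mRNAs. How reads of a shared mRNA were divided among its rows and their copies is unknown. Gm20594, the Rnr2-like copy without a row for its counterpart, stood far above the other copies. It had 112, 103, 102 and 68.9 counts per 1000 in 12W-1, 12W-2, 12W-3 and 12W-4, respectively, and 108, 79.1, 89.4 and 65.9 in 65W-1 to 65W-4. The age groups overlapped, and the fourth library was the lowest of each group. The means were 96.6 ± 19.0 at 12 W and 85.5 ± 17.7 at 65 W (SD, n = 4 each). The difference of the log2 ratios had p = 0.429 in a two-sided exact permutation test, which cannot give less than 0.0286 with 4 libraries in each group.

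Divided by transcript length, Gm20594 had 215 ± 42.3 counts per kb and 1000 mitochondrial mRNA counts at 12 W (SD, n = 4), beside 229 ± 6.92 for Nd4. Without the division the 12 W means were 96.6 for Gm20594 and 315 for Nd4, so the closeness per kb rests on it. Whether counts rise with transcript length in these libraries was not tested. Next per kb came Gm28438 (24.9 ± 2.84), Gm28437 (23.8 ± 2.20) and Gm29216 (23.5 ± 12.1), whose values per kb at 12 W did not differ beyond their spread. Undivided, their 12 W means were 8.59 ± 0.979, 18.6 ± 1.72 and 11.6 ± 5.96, respectively, so their order depends on the division. Gm10925 (8.77 ± 1.77 per kb) and Gm28661 (4.23 ± 0.608 per kb) followed. Gm10222 reached 1.02 ± 0.230, Gm28439 0.471 ± 0.268 and Gm13339 0.224 ± 0.0857 per kb at 12 W. The copies thus spanned a wide range of levels, and the 5 copies identical to their counterpart lay at several places in it.

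**Figure D2:**
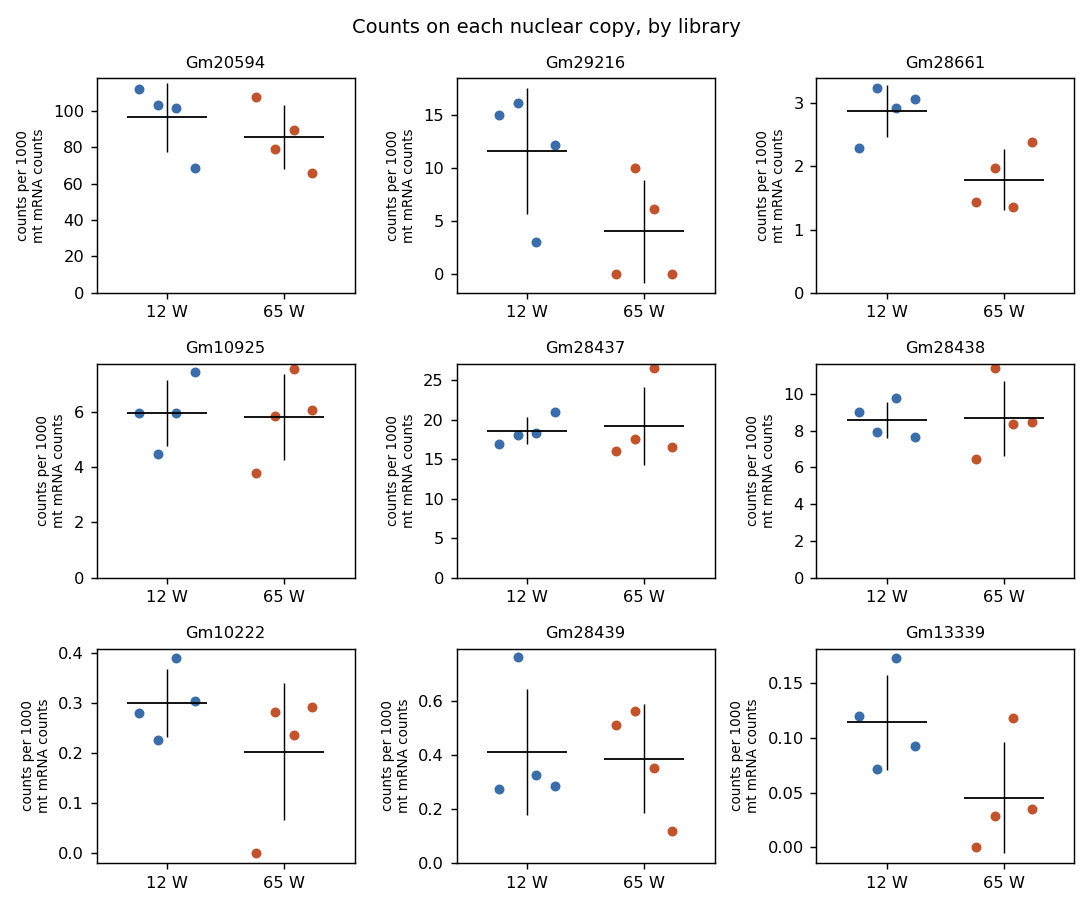
Counts on each copy per 1000 mitochondria-encoded mRNA counts (y axis, from 0), 1 point per library in the order of replicates 1 to 4, with 12 W in blue and 65 W in orange; horizontal lines are means and vertical lines 1 SD (n = 4). The age groups overlap for each of the 9 copies, and Gm29216 is at 0 in 65W-1 and 65W-4.

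Other nuclear transcripts that resemble mitochondrial ones were rarely counted. A further 8 transcripts matched a mitochondrial transcript over at least 100 nt at 80% identity or more, and together they had 183 counts. The most counted were Gm43743 on chromosome 3 (100 counts, 94.8% identical to Atp6 over 116 nt), Gm43841 on chromosome 5 (32 counts, 83.5% identical to Cytb over 550 nt) and Gm13341 on chromosome 2 (20 counts, 95.9% identical to Cox2 over 684 nt). Gm13340, which matches the whole 1545 nt of Cox1 at 97.6% identity, had 17 counts and was named after its values were seen. Gm13339, the least counted of the 9 genes followed here, had 62.

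To see how counts were divided between a copy and its mitochondrial counterpart, the copy was expressed as a share of the counts on both. This share needs no scaling between libraries. It was tested between ages for the 7 pairs with at least 100 counts in every library, each with a two-sided exact permutation test, and the smallest of the 7 p-values was 0.114 (0.267 after Benjamini-Hochberg adjustment over the 7). Cox1, Cox2 and Cox3 encode the core subunits of cytochrome c oxidase (complex IV), and the shares of their copies had different spreads.

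Gm28437 took a nearly constant share of the Cox3 pair. The share was 16.3%, 16.6%, 16.1% and 16.3% in 12W-1 to 12W-4 and 18.1%, 17.3%, 16.2% and 17.3% in 65W-1 to 65W-4. Of the 65 W libraries, 3 lay above all 12 W libraries, while 65W-3 lay among them. The mean share was 16.3 ± 0.200% at 12 W and 17.2 ± 0.794% at 65 W (SD, n = 4 each; two-sided exact permutation test, p = 0.114). Over the 8 libraries its SD, 0.716 percentage points, was 1.19 times the 0.600 that counting error alone would give.

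Gm28661 took a smaller share of the Cox2 pair. It was 5.18%, 6.05%, 5.75% and 5.69% for the 12 W libraries, against 3.54%, 4.04%, 1.95% and 5.81% for the 65 W ones. Of the 65 W libraries, 3 were below all 12 W libraries, and 65W-4 was within their range. The mean share was 5.67 ± 0.364% at 12 W and 3.84 ± 1.59% at 65 W, a difference of -1.83 percentage points that did not pass the test (two-sided exact permutation test, p = 0.114). Without 65W-1 and 65W-3 the difference was -0.743 percentage points. In 65W-3, 23 of 1182 counts were on the copy, with a 95% Wilson interval from 1.30 to 2.90%.

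Gm29216 was the most variable copy. Cox1 encodes the catalytic core subunit of complex IV, and the counts on this copy of its 3′ part were 2254, 1348, 343 and 1444 at 12 W, against 0, 703, 103 and 0 at 65 W. As a share of the Cox1 pair this was 11.3%, 14.8%, 4.36% and 12.2% for 12 W, against 0%, 13.7%, 12.0% and 0% for 65 W. Among the 65 W libraries, 2 held no count on the copy, and the other 2 were within the 12 W range. Taking 3 counts of the total as the limit that a count of 0 allows, 65W-1 (0 of 704) allows a share of up to 0.426% and 65W-4 (0 of 3346) up to 0.0897%. The 95% Wilson intervals of these shares, as plotted, reach up to 0.543% and 0.115%. The SD over the 8 libraries was 6.12 percentage points, 9.60 times the counting error, the largest such ratio of the 8 pairs. The mean share was 10.7 ± 4.47% at 12 W and 6.41 ± 7.44% at 65 W (SD, n = 4 each), with p = 0.286 in a two-sided exact permutation test. Intervals and limits cover counting error only, because PCR reads without molecular identifiers are not independent molecules.

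Gm10925 is the copy of Atp6, which encodes a membrane subunit of ATP synthase. Its share of the pair was 10.7%, 6.90%, 10.1% and 10.6% for 12 W, against 8.13%, 10.03%, 8.53% and 11.2% for 65 W. The lowest share was in 12W-2, whose 95% Wilson interval of 6.26 to 7.61% did not reach the shares of the other 12 W libraries. The means, 9.57 ± 1.80% at 12 W and 9.48 ± 1.42% at 65 W (SD, n = 4 each), lay closer together than replicates of an age (p = 0.943, two-sided exact permutation test).

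The copies of complex I mRNAs ranged from the highest to the lowest share. Gm28438 took 41.4%, 37.0%, 40.5% and 37.5% of the Nd3 pair at 12 W, against 36.2%, 42.1%, 30.9% and 39.7% at 65 W. Groups overlapped, with the lowest value in 65W-3 and the highest in 65W-2. The mean was 39.1 ± 2.15% at 12 W and 37.2 ± 4.85% at 65 W (SD, n = 4 each; two-sided exact permutation test, p = 0.514). This was the largest share of the 8 pairs. In the reference genome, Gm28438 is one of the 2 chromosome 1 copies with a substitution. That genome was built from mice of another strain than those sequenced. Which base the sequenced mice carry there, in Nd3 or in the copy, was not analysed, so the copy may or may not differ from Nd3 in them. Whether identity and share are related was not tested.

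Gm10222, the copy of Nd4l, was counted 42, 19, 45 and 36 times at 12 W, against 0, 20, 4 and 25 times at 65 W. Its share of the pair was between 8.30 and 14.3% at 12 W and between 0 and 9.05% at 65 W. The pair had only 52 counts in 65W-1, where 0 counts on the copy allow a share of up to 5.77%, so this share was not tested. The shares of the groups overlapped, since 65W-2 lay above 12W-2. Nd4l itself had 2.32 to 2.59 counts per 1000 mitochondria-encoded mRNA counts at 12 W and 2.84 to 5.32 at 65 W. These ranges did not overlap, while those of the scaled counts used below in edgeR did. How many transcripts of the whole table did not overlap per 1000 mitochondria-encoded mRNA counts was not counted.

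Gm28439, identical to Nd4 over 876 nt, took very little of the Nd4 pair. The 12 W libraries had 41, 64, 38 and 34 counts on it, against 27047 to 47049 on Nd4. The 65 W libraries had 5, 40, 6 and 10 counts on it. Its share was between 0.0871 and 0.236% at 12 W and between 0.0305 and 0.165% at 65 W, and the groups overlapped (two-sided exact permutation test, p = 0.771). Gm28439 is the only copy of the 7 on chromosome 1 whose annotated transcript lacks more than 3 nt of the 3′ end of its counterpart. Whether this bears on its share was not tested.

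Gm13339, the chromosome 2 copy of the 3′ part of Nd2, had 18, 6, 20 and 11 counts at 12 W, against 0, 2, 2 and 3 at 65 W. Its share of the Nd2 pair was 0.210 ± 0.0848% at 12 W and 0.0853 ± 0.0955% at 65 W (SD, n = 4 each; two-sided exact permutation test, p = 0.114). The groups overlapped through 65W-3, which had 2 of 903 counts, and 0 of 501 counts in 65W-1 allow a share of up to 0.599%.

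**Figure D3:**
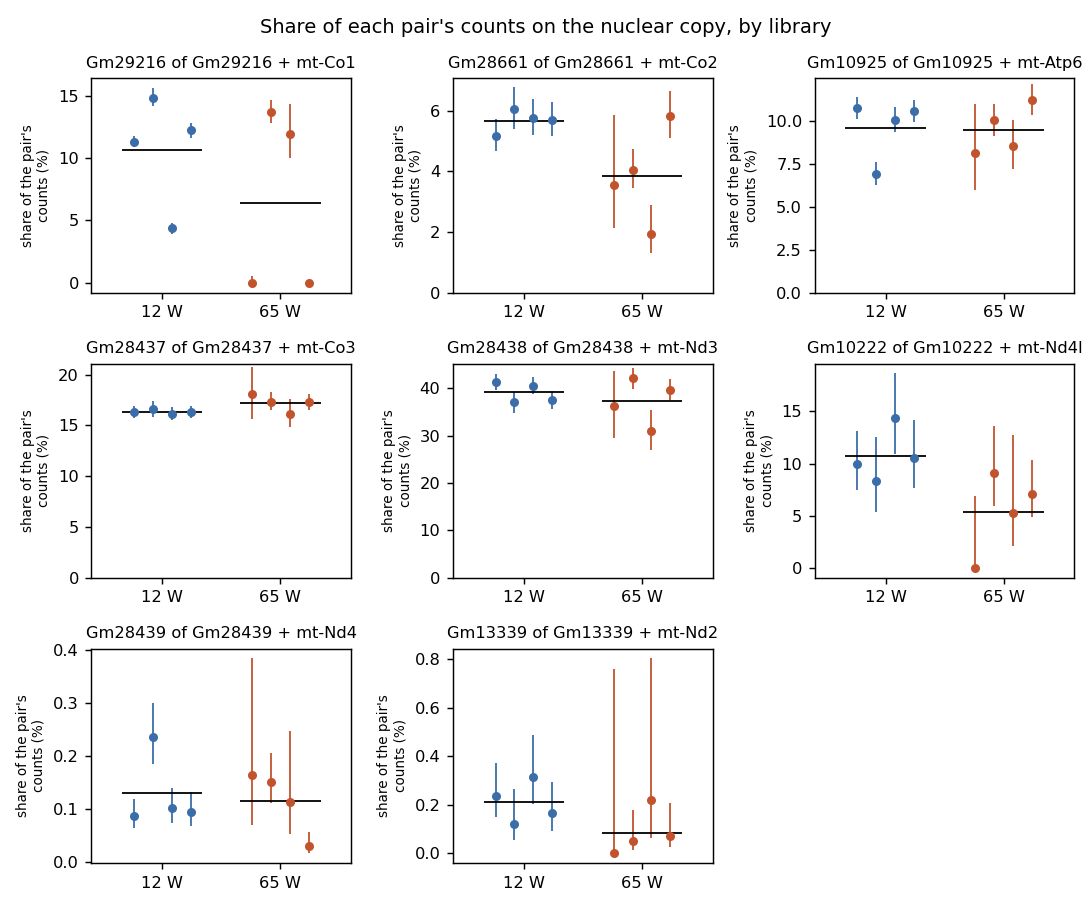
Share of each pair's counts that lay on the nuclear copy (y axis, %), 1 point per library in the order of replicates 1 to 4, with its 95% Wilson interval; 12 W is blue, 65 W is orange and horizontal lines are group means. Gm28437 stays between 16.1 and 18.1% in every library, while Gm29216 ranges from 0 to 14.8%.

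The age groups were then compared across the whole table with edgeR's quasi-likelihood test, which kept 132 transcripts. Of the 9 copies, 8 were kept, and Gm13339 was too rarely counted. With Benjamini-Hochberg adjustment, 0 of the 8 had an adjusted p under 0.05 in edgeR, DESeq2 or limma-voom, and edgeR called 1.52% of all transcripts tested (0.758% higher and 0.758% lower at 65 W). At an unadjusted p under 0.05 edgeR called 0 of the 8 and 9.09% of all. The age groups overlapped in scaled counts for each of the 8, while they did not for 5.30% of all transcripts tested. The median log2 fold change of the 8 copies was -0.23, beside -0.15 over the 132 transcripts, and 7 of the 8 values were below 0, beside 81 of 132. Under the other 4 scalings of the libraries 5 or 6 of the 8 were below 0. The calls over all transcripts were then split as 1 higher and 2 lower (RLE factors), 3 higher and 2 lower (TMM over nuclear transcripts) or absent (no factors, mitochondrial totals).

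Of the copies, Gm29216 lay furthest from 0, at a log2 fold change of -1.51 ± 1.26 (standard error; edgeR adjusted p = 0.717), and Cox1 had -0.75 ± 0.36 (edgeR adjusted p = 0.493). Without 65W-2 the value of Gm29216 was -3.09, without 65W-1 it was -0.83 and in limma-voom it was -5.40, none of them past the threshold. Gm28661 had -0.67 ± 0.35 (edgeR adjusted p = 0.493) beside -0.07 for Cox2, and -0.22 without 65W-1 and 65W-3. Gm10222 had -0.26 ± 0.45 (edgeR adjusted p = 0.915) beside 0.62 for Nd4l. Neither the copies nor these counterparts passed the threshold, and the differences within the pairs of Cox1 and Cox2 were tested above as shares, while that of Nd4l was not tested.

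For the other copies kept, the log2 fold changes lay between -0.25 and 0.02. They were -0.25 for Gm20594, -0.21 for Gm28439, -0.05 for Gm10925, -0.04 for Gm28437 and 0.02 for Gm28438, with standard errors from 0.25 to 0.63. The signs for Gm10925 and Gm28437 turned under other scalings of the libraries, and that for Gm28438 under other tests and filters. That for Gm28439 turned without 12W-2 (0.52) and without 65W-4 (0.21). The counterparts had 0.10 (Nd4), -0.11 (Atp6), -0.12 (Cox3) and 0.07 (Nd3).

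**Figure D4:**
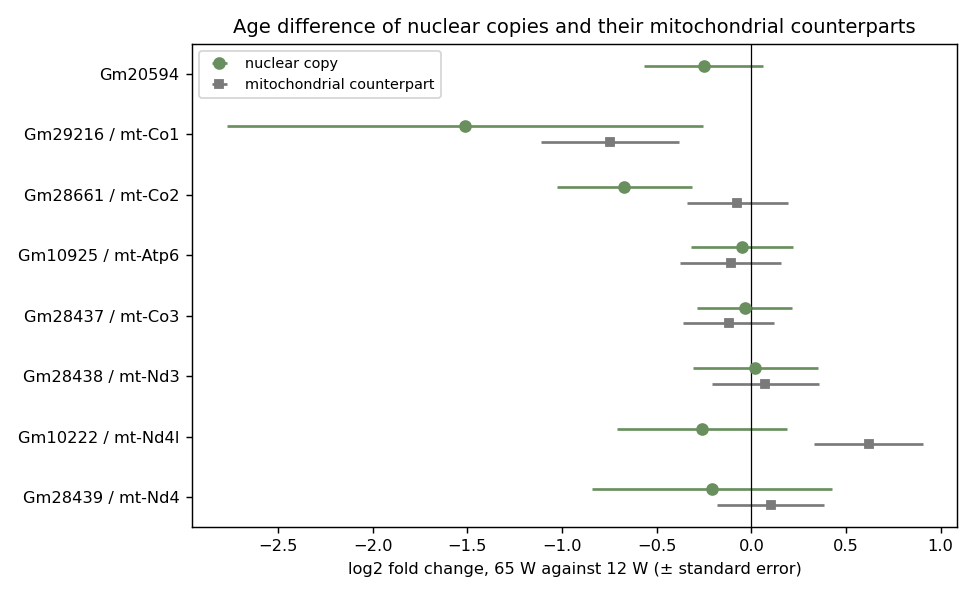
Log2 fold change of 65 W against 12 W (x axis) with 1 standard error from edgeR, for the 8 copies kept (green circles) and their mitochondrial counterparts (grey squares). The standard error of Gm29216, 1.26, is the widest, and no copy had an adjusted p under 0.05.

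With each copy's counts added to those of its counterpart, the values no longer depend on the division within a pair. Over the 125 transcripts then tested, Cox1 with Gm29216 was at -0.86 ± 0.41 on the log2 scale (standard error; edgeR adjusted p = 0.372). Nd4l with Gm10222 was at 0.49 ± 0.25 (edgeR adjusted p = 0.372). The other 6 sums lay between -0.13 (Cox3) and 0.08 (Nd4) and had edgeR adjusted p-values from 0.897 to 0.961.

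The share of all counts on the 9 copies was 12.7%, 12.4%, 11.1% and 9.32% at 12 W, against 10.5%, 10.4%, 10.5% and 8.11% at 65 W. The 12 W libraries 1 to 3 lay above all 65 W libraries, and 12W-4 lay below 3 of them. The means were 11.4 ± 1.55% and 9.89 ± 1.19% (SD, n = 4 each). Their difference of -1.49 percentage points was smaller than the SD at 12 W and larger than that at 65 W (p = 0.20, two-sided exact permutation test).

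Finally, the transcripts whose counts ran most in parallel with each copy were listed, using the SD over the 8 libraries of the log2 ratio of their counts with 0.5 added, where a small SD means a constant ratio. For Gm28437 the nearest of the 131 other transcripts was its counterpart Cox3 (SD 0.074), followed by Cox2 (0.086) and Atp6 (0.092). For Gm20594 the nearest were Nd5 (0.24), Nd6 (0.25) and Nd1 (0.27), 3 mitochondria-encoded mRNAs of complex I. Gm10925 ran closest to Cox3 (0.23), Gm28437 (0.24) and Atp6 (0.26). Gm28438 ran closest to Nd4 (0.20), Nd3 (0.22) and Nd2 (0.23).

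For the remaining copies the smallest SD was larger. Gm28661 ran closest to Nd2 (0.44), Apoc3 (0.46) and Cytb (0.46), so its counterpart Cox2 was not among the nearest 3. For Gm10222, with 191 counts in all, the nearest were the plasma protein transcripts F2 (0.42), Apoa2 (0.47) and Pzp (0.47), and these SDs depend on the 0.5 added to its 0 counts in 65W-1. For Gm28439, with 238 counts in all, they were Cep295 (0.55), Gm20594 (0.71) and Nd6 (0.73). For Gm29216 no order is given, because with 0 counts in 65W-1 and 65W-4 its SDs depend on the 0.5 added. Abundant transcripts have less counting error and so reach a small SD more easily.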

How the data were processed

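The authors deposited raw read counts per Ensembl transcript, without normalization, made from reads basecalled with MinKNOW and counted with the Epi2Me Labs differential expression workflow. The submitters' processing notes name minimap2, SAMtools and edgeR and the build GRCm38. The counting tool and annotation release are not given in the sources used here, so how reads of near-identical transcripts were divided is unknown. Of 8688 rows, 8591 were matched to GENCODE vM21; the others held 0.0946% of the counts. Copies were compared with the annotated mitochondrial transcripts by BLAST+ 2.17.0, with no genome at hand.

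Ages were compared with edgeR 4.0.16 (R 4.3.3) with TMM factors, filterByExpr and Benjamini-Hochberg adjustment at 0.05, in place of the normalization to Rnr2, and standard errors were derived from the F statistic. Single values were compared by exact permutation over 70 assignments (SciPy 1.17.1). DESeq2 1.42.0, limma 3.58.1, other scalings and filters, and leaving out libraries were the alternatives. In simulated counts for the 132 transcripts, log2 changes of 2 were recovered in 78.0% of cases and 0.357% of unchanged transcripts were called. No pair of libraries of an age differed by less than sampling noise. Named were the 9 copies, their counterparts, the 3 nearest transcripts of each copy kept except Gm29216, and the 3 most counted other matching transcripts. Members and lists were chosen with earlier results of these data known.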

Additional observations from a re-analysis of the deposited data

Results flagged for a closer look

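Of the 36 groups of 4 libraries checked, 4 held a library far from the other 3, where chance gives about 1 in 20 for a single group. The groups share libraries and counts, and Gm28439 in 12W-2 was flagged as a level and as a share. Whether the flags exceed chance therefore cannot be read from their number. Gm28437 had 26.5 counts per 1000 mitochondria-encoded mRNA counts in 65W-3, the next 65 W value being 17.5 and the highest 12 W value 21.0, and 65W-3 had only 22651 counts in all. The same library was also the highest of all 8 for Cox3 (137 counts per 1000), Cox2 (68.4) and Atp6 (80.9), so the copy did not stand apart from its counterpart there. Gm28439 had 0.763 counts per 1000 in 12W-2 against at most 0.328 in the other 12 W libraries, and its share of the Nd4 pair there was 0.236% against at most 0.102%. The 9 copies together took 8.11% of all counts in 65W-4, below the 10.4% of the next 65 W library. Gm29216 had 0 counts in that library, and Gm20594 was at its lowest per 1000 mitochondria-encoded mRNA counts, 65.9.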

How the results depend on the processing

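The 2 transcripts past the threshold became 0 without scaling factors or with mitochondrial mRNA totals as library sizes, 5 with TMM over nuclear transcripts, 1 with at least 10 counts in every library, 7 in DESeq2, 1 in limma-voom, and 0 to 3 with 1 library left out. Without 65W-1 and 65W-3, an alternative chosen after seeing the data, there were 0. No copy was called in any of these. Of 141 alternative log2 fold changes of the copies, 116 kept their sign, and the lowest adjusted p was 0.117 (Gm29216, edgeR without a filter). The scaling on nuclear transcripts moved the median of all transcripts by 0.12. Causes were not tested.

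Signs turned for Gm28437 with RLE factors (0.025), no factors (0.046), nuclear TMM (0.078), mitochondrial totals (0.042), at least 10 counts (0.11), DESeq2 (0.028) and without both small libraries (0.066). They turned for Gm10925 with RLE (0.013), nuclear TMM (0.082), at least 10 counts (0.060), DESeq2 (0.027) and without both small libraries (0.21), where Gm10222 gave 0.14. Gm28438 gave -0.43 without a filter and -0.036 in limma-voom. Without a filter the values of all 8 copies kept in the main test were lower than there. They lay from -1.89 (Gm29216) to -0.43 (Gm28438), with Gm20594 at -0.84 and Gm28437 at -0.55. The median over all transcripts was not taken for that setting. Without both small libraries the sums with the copies gave 0.14 (Cox3), 0.30 (Nd2), 0.18 (Atp6) and 0.18 (Cox2), the sums that kept their sign gave -0.48 (Cox1), 0.57 (Nd4), 0.51 (Nd3) and 0.65 (Nd4l), and the shares of Gm10925, Gm28438 and Gm28661 differed by 1.06, 1.78 and -0.743 percentage points. Gm28661 then gave -0.22, Gm28438 0.40 and Gm29216 -1.05. As log2 odds the share of Gm10925 differed by 0.000509.

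Deviations of same-numbered libraries correlated at -0.07, 0.22, -0.30 and 0.20, so a pairing by replicate number was neither evident nor excluded. The labels do not say whether same-numbered libraries belong together. With the replicate block 3 transcripts passed, Gm29216 gave -3.17, Gm28438 gave -0.049 and the Nd3 sum -0.00068, and the Cox1 sum gave -0.88 with an adjusted p of 0.0469 in edgeR. The main test had 2 transcripts past the threshold. No copy and no other sum passed with the block. Standard errors with the block were 0.19 for the Cox1 sum, beside 0.41 without it, and 1.91 for Gm29216, beside 1.26. For the shares and the Gm20594 ratio the block test could not pass 0.05, since its smallest possible p was 0.125.

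With 1 library left out, log2 fold changes lay from -0.45 to -0.04 (Gm20594), -0.15 to 0.24 (Gm28437), -3.09 to -0.83 (Gm29216), -0.34 to 0.38 (Gm28438), -0.21 to 0.32 (Gm10925), -0.86 to -0.39 (Gm28661), -0.53 to 0.14 (Gm10222) and -1.01 to 0.52 (Gm28439). The sums lay from -1.20 to -0.47 (Cox1), -0.29 to 0.28 (Cox2), -0.23 to 0.20 (Cox3), -0.26 to 0.26 (Atp6), -0.35 to 0.28 (Nd2), -0.24 to 0.38 (Nd3), -0.15 to 0.44 (Nd4) and 0.38 to 0.81 (Nd4l). Differences in share, in percentage points, lay from -6.69 to -2.13 (Gm29216), -2.49 to -1.20 (Gm28661), -0.977 to 0.361 (Gm10925), 0.600 to 1.24 (Gm28437), -3.51 to 0.219 (Gm28438), -0.0315 to 0.0204 (Gm28439), -0.170 to -0.0890 (Gm13339) and -2.17 to -0.897 (all copies). The log2 ratio of Gm20594 lay from -0.33 to -0.06. These permutation tests cannot pass 0.05, the smallest possible p being 0.0571 with 3 libraries against 4.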
